A study of Mus musculus with 4 samples.

Results

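A set of 35 genes of glucose breakdown and of the response to low oxygen were followed in 4 RNA-seq libraries of mouse fat. Of these, 2 came from mice that received MHE, a medicinal herb extract, and 2 from control mice that received PBS, a phosphate-buffered salt solution. The members were chosen by symbol, and all 35 were found among the 26214 symbols counted in each file. They are 2 glucose transporters, 16 glycolytic enzymes, 2 enzymes that set the level of fructose-2,6-bisphosphate, 5 genes of lactate and pyruvate handling, 9 other targets of hypoxia, and Hif1a itself. The tissue was the stromal vascular fraction (SVF) of the inguinal pad, a subcutaneous white fat depot. This fraction is the pellet of vessel, immune and progenitor cells left when fat cells are floated off after digestion. The labels do not state the strain, sex, age or diet of the mice, nor what the extract holds or how much was given for how long. Names of the deposited files follow one code in the MHE group and another in the PBS group, and whatever those codes mark, be it a diet, a cohort or a batch, cannot be told apart from treatment. The labels call the libraries biological replicates and speak of triplicates, of which 2 per group were analysed here.

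Glycolysis turns glucose into pyruvate in the cytosol, and lactate dehydrogenase converts pyruvate to lactate when mitochondria do not take it up. Under low oxygen the prolyl hydroxylases Egln1 and Egln3 slow down, the HIF-1 alpha protein encoded by Hif1a is no longer marked for destruction, and it binds short DNA elements in the promoters of most glycolytic genes and of genes such as Vegfa, Bnip3 and Car9. Growing fat is a classic setting of tissue hypoxia, and fat cells, macrophages and activated lymphocytes all use glycolysis heavily. HIF-1 alpha is controlled mainly as a protein, so its mRNA does not report its activity.

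Library totals ran from 27161882 to 33391075 counts. Every library carried fat cell transcripts: the 12 adipocyte markers took 1.26% to 2.52% of counts, led by Plin4 and Adipoq. Lymphocyte markers separated the groups, with the 11 tested T cell genes summing to 737 to 990.2 CPM (counts scaled to a common library size with TMM factors) under MHE and 13.6 to 39.1 CPM under PBS. PBS replicate 1 stood apart in 4 tested epithelial markers, led by Krt19 and Krt8, which summed to 172 CPM there and 4.97 to 6.88 CPM elsewhere. It also had the most macrophage transcripts (4001 CPM over 10 markers, against 1720 to 2873 in the other 3 libraries). The neutrophil marker Ly6g had 0 counts in every library. The 5 neutrophil markers tested summed to 56.9 and 53.5 CPM with MHE and 27.8 and 23.1 CPM with PBS. Both MHE libraries were higher in 3 of them (33.1% of all genes), and 2 overlapped. Cxcr2, named after its values were seen, had 17.2 and 13.2 CPM with MHE and 0.505 and 0.608 CPM with PBS. Since these are bulk samples, fewer cells of a type and less RNA per cell cannot be told apart in any result given here.

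No member passed the test of MHE against PBS. All 35 passed the low-count filter and entered edgeR's quasi-likelihood test over 16196 genes, and 0 of 35 had a Benjamini-Hochberg adjusted p under 0.05. Over all genes tested, 4.93% passed, 3.97% higher with MHE and 0.963% lower. At an unadjusted p under 0.05 the members held 1 higher and 7 lower, where 16.7% and 11.8% of all genes lay. Both MHE libraries lay below both PBS libraries in 17 members (48.6%; 28.9% of all genes), above them in 6 (17.1%; 33.1% of all genes), and 12 overlapped. Which library was left out changed the calls: 6 members passed without PBS replicate 1 (16.5% of all genes), 3 without PBS replicate 2 (14.6%) and 0 without either MHE library (0.0% of all genes as well, with 2352 and 2596 at an unadjusted p under 0.05). With DESeq2 7 members passed, all lower (Pfkm, Aldoa, Tpi1, Pgam1, Eno1, Ldhb and Bnip3), where 18.2% of all genes passed and 7.64% were lower. With limma-voom 0 passed (7.0% of all genes), and with the replicate number as a block 1 did (Ldhb; 4.72% of all genes). The median log2 fold change, MHE minus PBS, was -0.33 over the members and -0.02 over all genes.

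**Figure D1:**
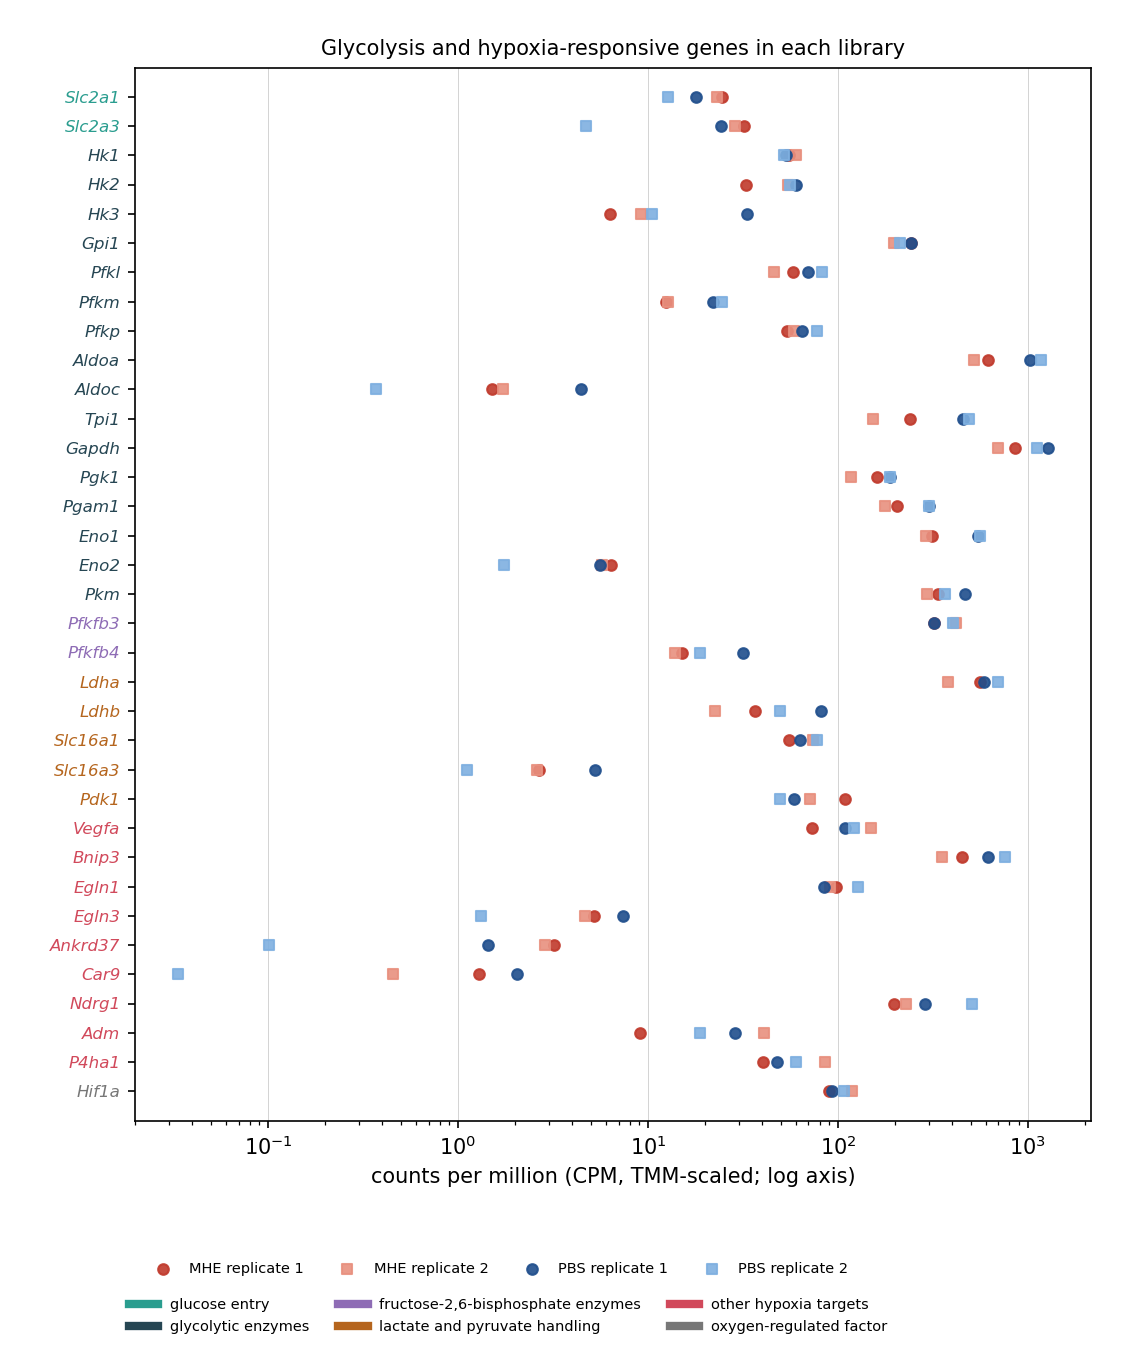
Level of each of the 35 genes in each library, in TMM-scaled CPM on a log axis; circles are replicate 1 and squares replicate 2, red for MHE and blue for PBS, and gene names are coloured by role. The abundant enzymes from Aldoa to Pkm show red points to the left of blue ones, while Slc2a3, Aldoc, Egln3, Ankrd37 and Car9 show the PBS replicate 2 square far to the left of the other 3 libraries.

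Counts are given side by side for the glycolytic enzymes and the other hypoxia targets, and the difference between the lists was not tested. Both MHE libraries were below both PBS libraries in 12 of 16 enzymes (75.0%) and in 2 of 9 other hypoxia targets (22.2%), Bnip3 and Ndrg1, where 28.9% of all genes did so. Of the 2023 genes with a mean of at least 100 CPM, 40.5% did so. Median log2 fold changes were -0.56 for the enzymes and -0.05 for the targets. A list of 29 further hypoxia targets outside the members was close to the enzymes in its median, at -0.54, with both MHE libraries lower in 13. Within a library the mean log2 CPM of the enzymes exceeded that of the targets by 1.46 and 1.12 in MHE replicates 1 and 2. The excess was 1.73 and 2.26 in PBS replicates 1 and 2, so it was less in both MHE libraries. The target mean over 9 genes was lowest in PBS replicate 2, at 4.13 (4.7 to 5.07 in the others). Car9, Ankrd37 and Egln3 had only 1, 3 and 39 counts in that library. The ratio of the summed CPM of the lists did not part the groups, at 3.65 and 2.81 with MHE and 4.07 and 2.96 with PBS. No test was made of the lists, since the members were chosen with results of these data known. When libraries were scaled by their totals alone, which moved the median of all genes from -0.02 to 0.14, the enzyme median was -0.42 and the target median turned to 0.12. Without MHE replicate 2 the medians were close, at -0.51 and -0.41, and without MHE replicate 1 they were -0.69 and 0.12.

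**Figure D2:**
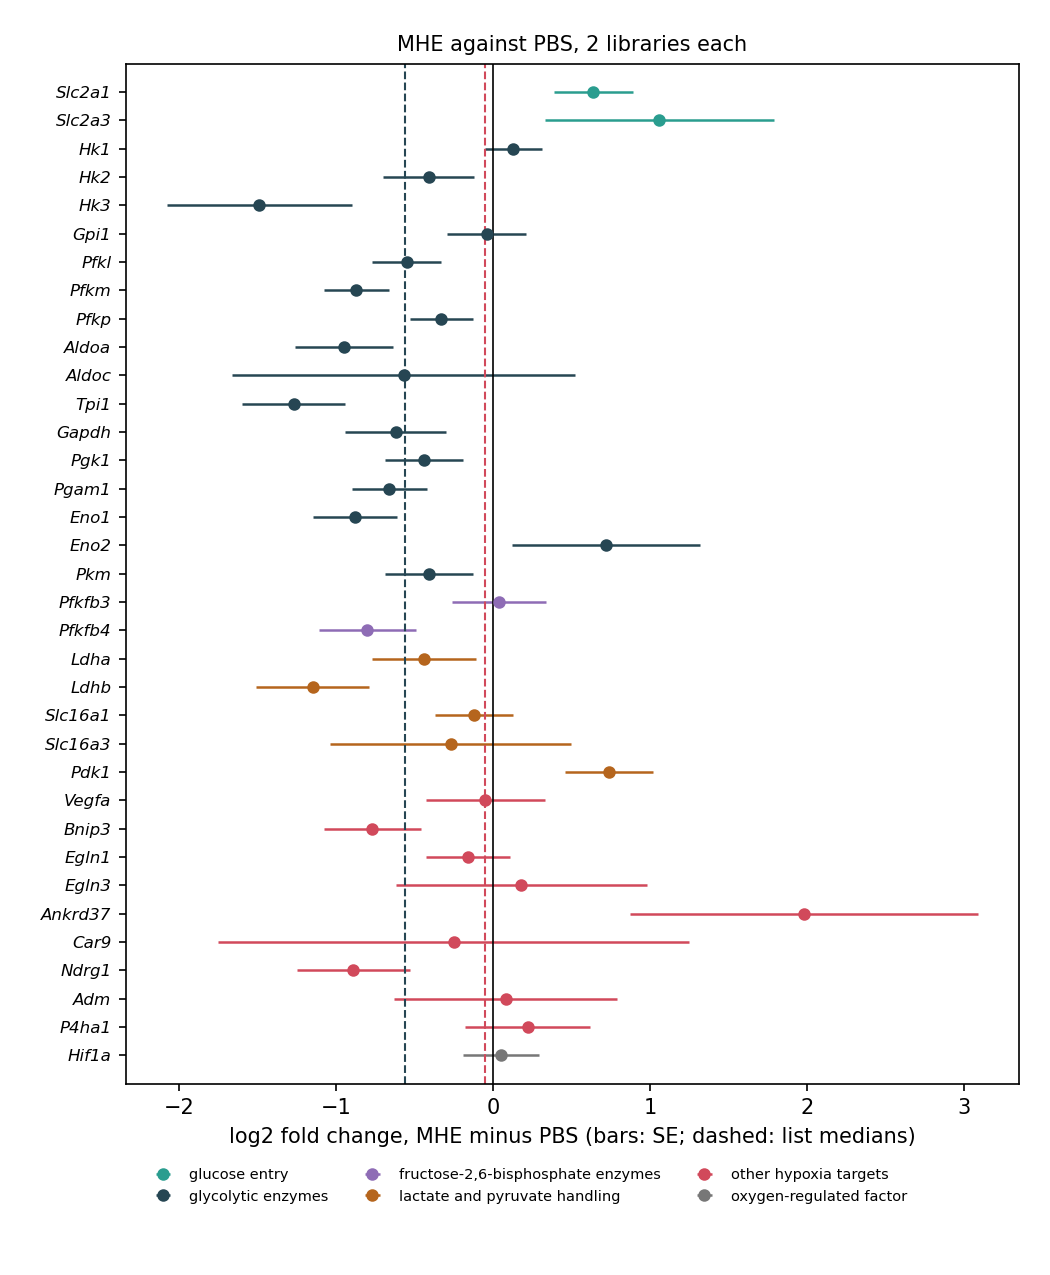
Log2 fold change of each gene, MHE minus PBS, with bars of 1 standard error, coloured by role; dashed lines are the medians of the glycolytic enzymes (-0.56) and of the other hypoxia targets (-0.05). Of the 16 enzymes, 14 lie left of 0 (51.2% of all genes do), while the hypoxia targets spread from -0.89 (Ndrg1) to 1.98 (Ankrd37).

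The steps from aldolase to pyruvate kinase held the most abundant enzymes, and 7 of them lay lower in both MHE libraries without passing the test. Tpi1, triose phosphate isomerase, which interconverts the triose products of aldolase (chromosome 6, 124810586 to 124814158), had 239 and 152 CPM in the MHE libraries and 455 and 489 CPM in the PBS libraries. Both MHE values were thus well under both PBS values, with a log2 fold change of -1.27 ± 0.33 (SE) and an adjusted p of 0.0898. Aldoa, the aldolase that splits fructose-1,6-bisphosphate (chromosome 7, 126795234 to 126800994), had 617 and 519 CPM with MHE and 1024 and 1173 CPM with PBS. Its log2 fold change was -0.95 ± 0.31 and its adjusted p 0.133. Eno1, the enolase that forms phosphoenolpyruvate (chromosome 4, 150236708 to 150248879), stood at 313 and 292 CPM against 546 and 563 CPM. Replicates of Eno1 differed little, at 302 ± 14.6 CPM with MHE and 555 ± 11.7 CPM with PBS (SD, n = 2 each), yet with a log2 fold change of -0.88 ± 0.27 it had an adjusted p of 0.12. Its near-identical copy Eno1b, named after its values were seen, had -0.93 ± 0.21 (adjusted p = 0.0683), and reads of the pair cannot be fully separated.

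Promoter sequence is shown for Aldoa and Tpi1 because both lay below PBS but the windows shown differ in the core hypoxia response element. The 250 bases before the start are given in RefSeq's GRCm38.p6 sequence, and capitals mark ACGTG or GCGTG on either strand. Aldoa has 3 listed starts, of which 1 is shown, and that window lies inside the annotated gene. The window of another of its starts (126800448 to 126800697) holds 0 matches, so the difference depends on the start chosen. In these windows, chosen after the values were seen as were those shown further on, Aldoa holds 1 match and Tpi1 none. A longer annotated Tpi1 transcript starts inside its window.
Aldoa (chr7:126799255-126799504, minus strand): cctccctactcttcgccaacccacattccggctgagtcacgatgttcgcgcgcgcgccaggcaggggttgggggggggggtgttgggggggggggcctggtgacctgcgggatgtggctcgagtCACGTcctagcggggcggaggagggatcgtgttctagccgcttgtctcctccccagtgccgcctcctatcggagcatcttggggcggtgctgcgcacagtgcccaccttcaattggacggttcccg
Tpi1 (chr6:124814159-124814408, minus strand): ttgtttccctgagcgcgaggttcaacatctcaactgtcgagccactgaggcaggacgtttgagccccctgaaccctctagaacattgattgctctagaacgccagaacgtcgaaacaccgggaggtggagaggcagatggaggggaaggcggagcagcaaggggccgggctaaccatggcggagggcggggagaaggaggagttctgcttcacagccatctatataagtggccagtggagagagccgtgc

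Gapdh, the enzyme that makes the first NADH of the pathway (chromosome 6, 125161852 to 125166467), was the most abundant member per exon length. It had 860.0 and 699 CPM with MHE and 1272 and 1120.0 CPM with PBS, so that the groups did not overlap although the log2 fold change of -0.62 ± 0.32 had an adjusted p of 0.268. Pgam1, phosphoglycerate mutase, had 204 and 177 CPM against 301.4 and 300.7 CPM, a log2 fold change of -0.66 ± 0.24 (adjusted p = 0.159). Pgk1, the first ATP-making step, had 159.7 and 117 CPM against 187.0 and 187.4 CPM (-0.44 ± 0.25, adjusted p = 0.313). In both genes the PBS libraries were nearly equal and MHE replicate 2 was the lowest. Pkm, pyruvate kinase, had 334 and 293 CPM against 466 and 365 CPM (-0.41 ± 0.28, adjusted p = 0.39), and its groups stood closest together among these 7 genes. Gapdh is often used as a reference gene, and processed copies of Gapdh, Pgk1, Eno1, Pgam1, Tpi1 and Aldoa are common in mouse, so their counts may include or lose reads of such copies.

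The steps before aldolase were less uniform. Hk1, the constitutive hexokinase, differed by less than its standard error, with 55.6 and 60.0 CPM under MHE and 53.5 and 52.2 CPM under PBS (log2 fold change 0.13 ± 0.18, adjusted p = 0.674). Hk2, the insulin- and hypoxia-responsive hexokinase, had 32.7 and 54.5 CPM against 60.0 and 56.1 CPM, with MHE replicate 1 low and the other 3 libraries close (log2 fold change -0.41 ± 0.29, adjusted p = 0.394). Hk3, a hexokinase of myeloid cells, had 6.32 and 9.23 CPM with MHE and 33.1 and 10.5 CPM with PBS. Its log2 fold change of -1.49 ± 0.59 (adjusted p = 0.179) therefore rested on PBS replicate 1: it was -0.45 without that library and -2.08 without PBS replicate 2 (adjusted p = 0.00208). Summed macrophage markers were 4001 and 1720 CPM in the PBS libraries, the same order as Hk3, but 2331 and 2873 CPM in the MHE libraries, above PBS replicate 2, where Hk3 lay below it. Their part in the Hk3 values was not tested. Gpi1, glucose-6-phosphate isomerase, overlapped between groups (243.6 and 198.1 CPM against 241.8 and 212.4 CPM), and its log2 fold change of -0.04 turned to 0.12 under library totals.

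Phosphofructokinase, the main control point of glycolysis, is built from 3 subunit genes. Pfkm, the muscle-type subunit (chromosome 15, 98092589 to 98132447), had the smallest p of all members, with 12.5 and 12.7 CPM under MHE against 21.9 and 24.4 CPM under PBS. Libraries of each group agreed closely (12.6 ± 0.156 and 23.1 ± 1.79 CPM, n = 2 each), and the log2 fold change was -0.87 ± 0.21 with an adjusted p of 0.0768. Pfkl, the liver-type subunit, had 57.9 and 46.0 CPM against 69.6 and 82.3 CPM (-0.55 ± 0.22, adjusted p = 0.187). Pfkp, the platelet-type subunit, had 54.0 and 58.8 CPM against 65.0 and 77.2 CPM (-0.33 ± 0.20, adjusted p = 0.328). Pfkm made up 10.1% (95% exact binomial interval 9.16 to 11.0) and 10.8% (9.81 to 11.9) of phosphofructokinase counts in the MHE libraries, and 14.0% (13.0 to 15.1) and 13.3% (12.4 to 14.2) in the PBS libraries. Intervals cover counting error only. Markers of skeletal muscle, where Pfkm is the main form, did not share one direction. The 11 markers, led by Acta1 and Mb, summed to 69.0 and 171 CPM with MHE and to 313 and 1188 CPM with PBS, most of it Acta1. In 5 of the 11 both MHE libraries were higher (33.1% of all genes) and in 3 lower (28.9% of all genes). The 1 that passed, the myosin gene Myh4, named after its values were seen, was higher (4.58, adjusted p = 0.0486), as 3.97% of all genes were. The part of these cells in the Pfkm values was not tested.

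The enzymes of fructose-2,6-bisphosphate, which switches phosphofructokinase on, behaved unlike each other. Pfkfb3, the strongly kinase-type and hypoxia-inducible form, was abundant and overlapped, with 321.4 and 419.5 CPM under MHE and 321.3 and 401.6 CPM under PBS (log2 fold change 0.04, and -0.03 under upper-quartile scaling). Pfkfb4 had 15.02 and 13.9 CPM with MHE and 31.8 and 18.7 CPM with PBS. Its log2 fold change was -0.80 ± 0.31 (adjusted p = 0.172), and it was -1.13 without PBS replicate 2 (adjusted p = 0.0321) and -0.39 without PBS replicate 1.

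Glucose entry was the one step whose genes both lay higher with MHE. Slc2a1, the widely expressed transporter GLUT1 (chromosome 4, 119108745 to 119137330), had 24.4 and 23.2 CPM under MHE and 18.0 and 12.7 CPM under PBS. The MHE libraries were close to each other and above both PBS libraries, with a log2 fold change of 0.64 ± 0.25 and an adjusted p of 0.177. Slc2a3, the high-affinity transporter GLUT3 of neurons and leukocytes, had 31.97 and 28.6 CPM against 24.3 and 4.73 CPM. Here 3 libraries were alike and PBS replicate 2 was low, so that the log2 fold change was 1.06 ± 0.73 with all libraries (adjusted p = 0.386), 2.66 without PBS replicate 1 (adjusted p = 8.28e-04) and 0.33 without PBS replicate 2. Slc2a4, the insulin-regulated GLUT4 of fat and muscle cells, is no member and was named after its values were seen. It pointed the other way, with 56.2 and 51.1 CPM against 76.2 and 117 CPM (-0.85 ± 0.27, adjusted p = 0.13).

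In lactate and pyruvate handling, Pdk1 was the only gene with both MHE libraries higher. Pdk1 is the kinase that closes pyruvate dehydrogenase under hypoxia (chromosome 2, 71873215 to 71903858). It had 109 and 71.7 CPM with MHE and 58.7 and 49.6 CPM with PBS, a log2 fold change of 0.74 ± 0.28 (adjusted p = 0.163). Ldhb, the lactate dehydrogenase subunit of oxidative tissues (chromosome 6, 142490249 to 142507957), had 36.7 and 22.5 CPM against 81.4 and 49.7 CPM. The log2 fold change was -1.15 ± 0.36 at an adjusted p of 0.128, and the values without PBS replicates 1 and 2 were -0.76 and -1.45 (adjusted p = 0.164 and 0.017). Ldha, the subunit that favours lactate, had 562 and 379.6 CPM against 588.9 and 692.9 CPM, so that MHE replicate 1 lay close to PBS replicate 1 (-0.44 ± 0.33, adjusted p = 0.423). Ldhb made up 6.13% and 5.60% of lactate dehydrogenase counts with MHE, 6.69% in PBS replicate 2 and 12.1% in PBS replicate 1. The lactate exporters showed no parting of the groups: Slc16a1 (MCT1) lay between 55.4 and 78.1 CPM in all 4 libraries, and its log2 fold change of -0.12 turned to 0.05 under library totals, while Slc16a3 (MCT4) had 2.68 and 2.60 CPM with MHE, between 5.27 and 1.12 CPM with PBS.

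Upstream sequence is shown for Ldha, which holds the most matches among the members in the 300-base windows, and for Pdk1, the only member higher with MHE at an unadjusted p under 0.05. Each has 2 listed starts, of which 1 is shown. The Ldha window lies inside its annotated gene, which begins at 46842274, and the Pdk1 window ends just past its annotated gene start at 71873215. Capitals mark ACGTG or GCGTG on either strand, and CACGTG is a match on both. Ldha has 5 such matches in these 250 bases and Pdk1 has 1. In the 250 bases before the start not shown, Ldha has 1 and Pdk1 has 0.
Ldha (chr7:46845554-46845803, plus strand): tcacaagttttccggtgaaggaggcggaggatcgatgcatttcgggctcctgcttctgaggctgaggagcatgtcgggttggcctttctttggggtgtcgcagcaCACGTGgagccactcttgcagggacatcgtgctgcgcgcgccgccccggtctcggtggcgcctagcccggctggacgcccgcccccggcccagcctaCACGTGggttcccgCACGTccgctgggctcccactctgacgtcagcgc
Pdk1 (chr2:71872974-71873223, plus strand): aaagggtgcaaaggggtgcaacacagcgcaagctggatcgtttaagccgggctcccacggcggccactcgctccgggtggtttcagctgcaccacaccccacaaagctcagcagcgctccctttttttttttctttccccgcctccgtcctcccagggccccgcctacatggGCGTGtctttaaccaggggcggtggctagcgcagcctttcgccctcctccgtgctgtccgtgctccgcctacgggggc

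The other hypoxia targets did not share one direction. Bnip3, a mitophagy receptor (chromosome 7, 138890836 to 138909506), was the most abundant of them, with 449 and 354 CPM under MHE and 613 and 757 CPM under PBS. Both MHE libraries were below both PBS libraries, as in the abundant enzymes, with a log2 fold change of -0.77 ± 0.31 and an adjusted p of 0.183. Ndrg1, a stress-responsive growth arrest gene (chromosome 15, 66929318 to 66969641), had 197 and 229 CPM against 286 and 506 CPM. Its log2 fold change of -0.89 ± 0.36 (adjusted p = 0.186) leaned on PBS replicate 2, being -1.26 without PBS replicate 1 (adjusted p = 0.0423) and -0.41 without PBS replicate 2. Ankrd37, an ankyrin-repeat gene used as a hypoxia readout, had 107 and 82 counts with MHE and 40 and 3 counts with PBS. Both MHE libraries were higher, but the PBS libraries were so far apart that the log2 fold change of 1.98 ± 1.11 had an adjusted p of 0.298. Without PBS replicate 1 it was 4.84 (adjusted p = 0.00287) and without PBS replicate 2 it was 1.09. Exons of Ankrd37 overlap those of Lrp2bp and Ufsp2 on the other strand, and the files do not say to which gene such reads went.

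Upstream sequence is shown for Bnip3 and Ankrd37, hypoxia targets that lay on opposite sides of PBS. Capitals mark the same motifs, of which Bnip3 holds 5 matches and Ankrd37 holds 4. The Ankrd37 window lies inside its annotated gene, which begins at 46000414 on the minus strand.
Bnip3 (chr7:138909507-138909756, minus strand): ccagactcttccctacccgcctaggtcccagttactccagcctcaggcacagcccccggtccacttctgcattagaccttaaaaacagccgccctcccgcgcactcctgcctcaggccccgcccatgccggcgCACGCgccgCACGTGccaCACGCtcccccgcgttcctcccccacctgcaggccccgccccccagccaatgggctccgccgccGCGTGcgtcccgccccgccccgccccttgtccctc
Ankrd37 (chr8:45999851-46000100, minus strand): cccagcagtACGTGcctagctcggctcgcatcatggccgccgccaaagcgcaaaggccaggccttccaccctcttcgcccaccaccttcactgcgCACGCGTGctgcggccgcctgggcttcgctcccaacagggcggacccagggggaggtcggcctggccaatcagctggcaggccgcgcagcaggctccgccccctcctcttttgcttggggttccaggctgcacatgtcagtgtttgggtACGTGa

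In 3 secreted or matrix-related targets the MHE libraries lay on either side of the PBS libraries. Vegfa, the main angiogenic growth factor (chromosome 17, 46016993 to 46032377), had 73.1 and 149.6 CPM in the MHE libraries and 109 and 121 CPM in the PBS libraries. P4ha1, the collagen prolyl hydroxylase subunit, had 40.4 and 85.4 CPM around 47.8 and 60.3 CPM, and Adm, the vasodilator adrenomedullin, 9.06 and 40.9 CPM around 28.6 and 18.7 CPM. In all 3 genes MHE replicate 1 was the lowest library and MHE replicate 2 the highest. Their log2 fold changes were -0.05, 0.22 and 0.08, and that of Vegfa was 0.12 under library totals, that of Adm -0.01 under upper-quartile scaling. Several marker sets had the same order of the MHE libraries. Progenitor and fibroblast genes, led by Col3a1 and Dcn, summed to 1674 and 6011 CPM in MHE replicates 1 and 2 (3457 and 5022 CPM with PBS). Genes induced by tissue digestion, led by Jun and Egr1, summed to 414 and 907 CPM (492 and 411 CPM with PBS). Sums of macrophage, pericyte and smooth muscle, skeletal muscle, Schwann cell and epithelial markers were also higher in MHE replicate 2. Those of adipocyte, neutrophil, T cell, B cell, blood endothelial and red cell markers were lower there. The part of any of these sets in the 3 genes was not tested.

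Among the members, the oxygen sensors Egln1 and Egln3 and the factor Hif1a overlapped between groups. Hif1a (chromosome 12, 73901324 to 73947554) had 89.9 and 119 CPM with MHE and 92.9 and 108 CPM with PBS, a log2 fold change of 0.05 ± 0.24 (adjusted p = 0.898), or -0.01 under upper-quartile scaling. Egln1, the main HIF prolyl hydroxylase, had 97.6 and 91.3 CPM against 84.2 and 128 CPM (-0.16 ± 0.27, and 0.02 under library totals). Egln3, its hypoxia-induced relative, had 5.18 and 4.67 CPM with MHE, between 7.40 and 1.32 CPM with PBS. Car9, a carbonic anhydrase that HIF-1 switches on in epithelia and tumours, was sparse, with 43 and 13 counts under MHE and 57 and 1 under PBS.

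The PBS libraries differed from each other by over 3-fold in 8 of 35 members (22.9%), as they did in 9.37% of all genes. PBS replicate 1 was the higher in all 8, namely Slc2a3, Hk3, Aldoc, Eno2, Slc16a3, Egln3, Ankrd37 and Car9. Over all genes 1517 differed this far, and PBS replicate 1 was the higher in 1251 of those (7.72% of all genes), so most shared this direction. All 8 had a mean of 22.4 CPM or less over the libraries. Aldoc, the brain-type aldolase, had 123 and 11 counts with PBS and 50 and 49 with MHE. Eno2, the neuronal enolase, had 155 and 52 counts with PBS and 212 and 164 with MHE. Its log2 fold change of 0.72 ± 0.60 (adjusted p = 0.46) was 1.77 without PBS replicate 1 (adjusted p = 0.0295) and 0.13 without PBS replicate 2. In Aldoc, Slc16a3, Egln3 and Car9 the MHE libraries lay inside the range set by the PBS libraries. In PBS replicate 1 the sums of macrophage and epithelial markers were also the highest of the 4 libraries, as given above. Lyz2 gave 1976 CPM of the macrophage sum of 4001 CPM there. Csf1r and Mrc1, named after their values were seen, were instead highest in MHE replicate 2, at 268 and 190 CPM. Lymphocyte markers were higher there than in PBS replicate 2, with B cell sums of 112 and 9.60 CPM and T cell sums of 39.1 and 13.6 CPM. The part of these cells in the 8 genes was not tested. Between the MHE libraries, only Adm differed by over 3-fold (4.12% of all genes did).

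**Figure D3:**
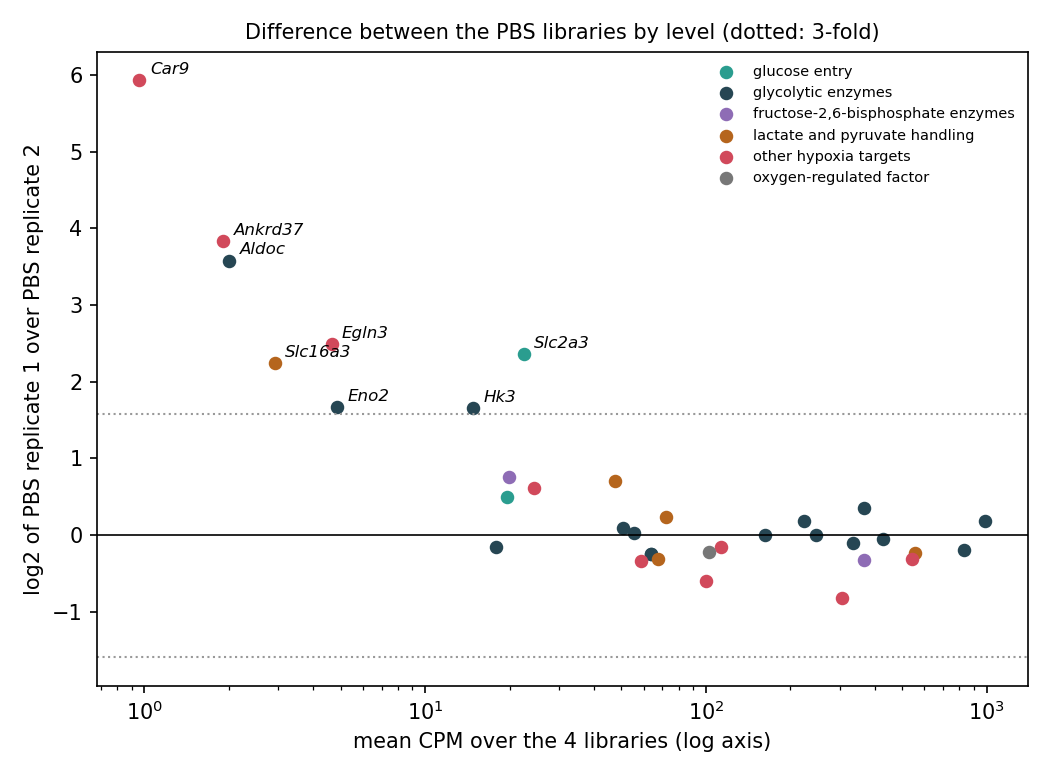
Log2 ratio of PBS replicate 1 to PBS replicate 2 for each gene against its mean CPM over the 4 libraries (log axis), coloured by role; dotted lines mark a 3-fold difference. The 8 labelled genes lie above the upper line and at 22.4 CPM or less, and the ratios of Ankrd37 and Car9 rest on 3 counts and 1 count in PBS replicate 2.

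Ratios of related genes within a library, which do not depend on how libraries are scaled, were compared for 11 pairs of isoforms or relatives. The ratio of Eno2 to Eno1 counts was 2.04% and 1.97% with MHE and 1.02% and 0.312% with PBS, a mean log2 difference of 1.82, or 2.67 without PBS replicate 1 and 0.97 without PBS replicate 2. Counts of Hk2 were 58.9% and 90.9% of those of Hk1 with MHE and 112% and 107% with PBS, a difference of -0.58. Of the 11 ratios compared, the groups did not overlap in 5, while for the levels of single genes they did not overlap in 62.0% of all genes. Of these 5 ratios, Eno2 to Eno1 was higher with MHE and Hk2 to Hk1, Hk3 to Hk1, Pfkm to Pfkl and Ldhb to Ldha were lower. A two-sided exact permutation test of 2 against 2 libraries cannot give less than p = 0.333, and after adjustment over the 11 ratios these 5 had p = 0.733.

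**Figure D4:**
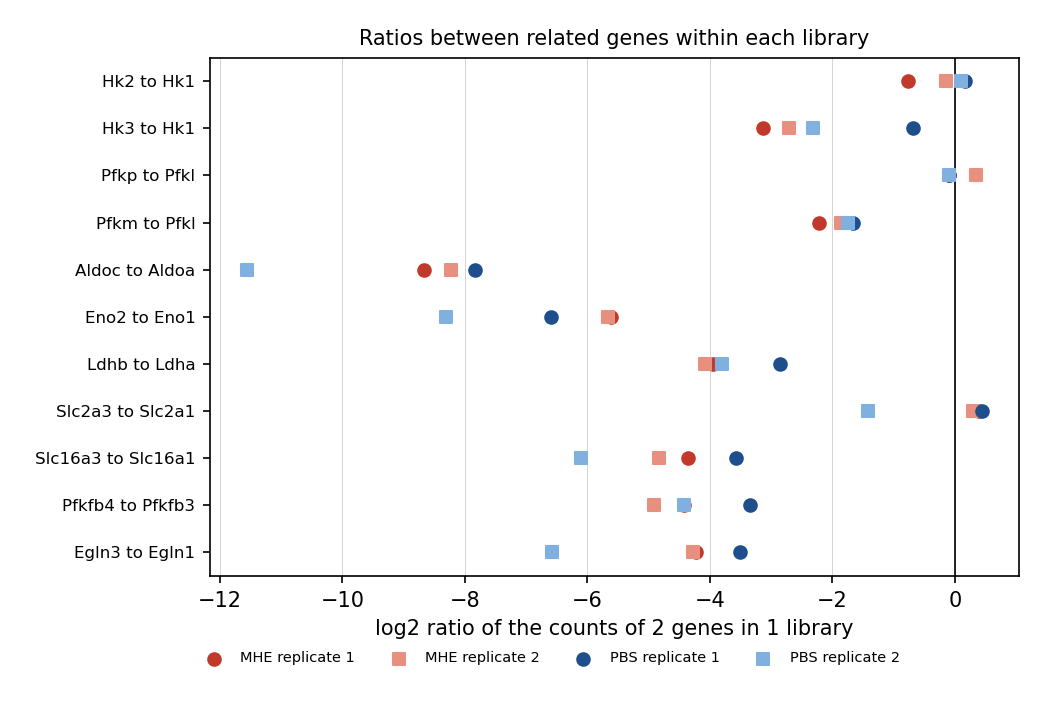
Log2 ratio of the counts of a gene to those of a related gene in each library; circles are replicate 1 and squares replicate 2, red for MHE and blue for PBS. Both red points lie right of both blue points for Eno2 to Eno1 and left of them for Hk2 to Hk1, Hk3 to Hk1, Pfkm to Pfkl and Ldhb to Ldha, while PBS replicate 2 is the lowest point for Aldoc, Slc2a3, Slc16a3 and Egln3.

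Per kilobase of exon the order of the members was steep. Averaged over the 4 libraries, Gapdh stood at 661 CPM per kilobase, Aldoa at 457, Ldha at 293.4 and Bnip3 at 292.9, of which Ldha and Bnip3 each exceeded the other in 2 of 4 libraries. Tpi1 (189), Eno1 (168), Pkm (140.3) and Pgam1 (138.6) followed, and neighbours among these 4 kept their order in 3 of 4 libraries. At the bottom were Aldoc (0.675), Slc16a3 (0.655) and Car9 (0.475). These are forms typical of brain, of highly glycolytic cells and of epithelia. Of 15 members with a mean of at least 100 CPM, 10 had both MHE libraries below both PBS libraries and 0 above, where 40.5% of the 2023 genes at this level lay below.

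Most markers of fat cells stood lower with MHE alongside the abundant enzymes. The 12 adipocyte markers summed to 12134 and 11996 CPM with MHE and 17196 and 28399 CPM with PBS. Of these 12, 10 had a negative log2 fold change (51.2% of all genes did), with a median of -0.74. Both MHE libraries were lower in 8 (28.9% of all genes, 40.5% of those with a mean of at least 100 CPM), higher in 1, and 3 overlapped. Adipoq had 2075 and 1462 CPM against 3172 and 4230 CPM, while Plin4 overlapped, with 1620 and 2670 CPM against 2472 and 5748 CPM. The 1 that passed, Lep, named after its values were seen, was lower (-2.72, adjusted p = 0.0409), as 0.963% of all genes were. Blood endothelial markers, led by Pecam1 and Cdh5, had a median of -0.70, with sums of 1048 and 1019 CPM against 1184 and 2107 CPM. The 10 pericyte and smooth muscle markers, led by Acta2 and Rgs5, summed to 555 and 893 CPM against 3049 and 3268 CPM. Both MHE libraries were lower in 4 of them (28.9% of all genes), and 6 overlapped. Acta2 had 126 and 295 CPM against 1025 and 2214 CPM, while Rgs5 overlapped, with 213 and 306 CPM against 296 and 587 CPM. In contrast 11 of 11 T cell and 4 of 10 B cell markers, none of them a member, passed the test as higher with MHE (3.97% of all genes). Both MHE libraries were higher in all 11 T cell and all 10 B cell markers (33.1% of all genes). The part of these cell types in the lower enzyme levels was not tested.

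Neighbouring pathways were read from lists outside the members, and their medians were also negative except in oxygen sensing. In the pentose phosphate branch, which makes NADPH, 0 of 8 passed and the median was -0.40. Nearest to the threshold were 2 NADPH-making enzymes. Pgd had 122 and 116 CPM against 277 and 269 CPM (log2 fold change -1.20 ± 0.23, adjusted p = 0.0524) and G6pdx 174 and 165 CPM against 412 and 536 CPM (-1.48 ± 0.28, adjusted p = 0.0537). The next, the ribose isomerase Rpia, named after its values were seen, pointed the other way (0.94 ± 0.21, adjusted p = 0.0686). Of 12 genes of pyruvate entry into mitochondria 0 passed (median -0.52), with the phosphatase Pdp1 at -0.77 ± 0.19 (adjusted p = 0.0796) and the E2 subunit Dlat at -0.82 ± 0.24 (adjusted p = 0.11). Of 5 tested genes that bypass glycolysis in reverse 0 passed (median -0.58), with the muscle bisphosphatase Fbp2 at -2.07 ± 0.46 (adjusted p = 0.0693) and pyruvate carboxylase, Pcx, at -1.32 ± 0.34 (adjusted p = 0.0878).

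Among 15 further glycolysis genes tested, 1 passed, as higher with MHE, where 4.93% of all genes passed and 3.97% were higher. Eno3, the muscle enolase, had 20.5 and 19.3 CPM with MHE and 6.06 and 3.41 CPM with PBS, a log2 fold change of 2.07 ± 0.35 (adjusted p = 0.0451). Its call was lost under upper-quartile scaling (2.00, adjusted p = 0.0518) and without MHE replicate 1 or 2 (2.04 and 2.12, adjusted p = 0.343 and 0.296). The 4 tested enolases did not point the same way, with Eno1 and Eno1b negative and Eno2 and Eno3 positive. The log2 fold changes of Eno1 and Eno2 were -0.71 and 0.85 under library totals and -0.94 and 0.65 under upper-quartile scaling. Of 29 further hypoxia targets 0 passed, the median was -0.54, and 23 were negative (51.2% of all genes were). The lipoprotein receptor Vldlr had -1.29 ± 0.26 (adjusted p = 0.0584) and the MYC antagonist Mxi1 -0.72 ± 0.19 (adjusted p = 0.0894). Of 12 oxygen-sensing genes 0 passed (median 0.01), and Hif3a, a HIF family member without full activating function, had -1.24 ± 0.39 (adjusted p = 0.125) and the coactivator Crebbp 1.12 ± 0.34 (adjusted p = 0.118).

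The core motif ACGTG or GCGTG was frequent in member promoters. Of 33 members with a promoter in the RefSeq table, 30 (90.9%) held a match in the window from 250 bases before to 50 after a listed start, on either strand, and Gpi1, Eno2 and Tpi1 held none. Over the 19526 counted symbols with a promoter 51.9% did. Member windows were richer in G and C (median 61.3%, against 56.0%), and the motif itself contains CG. By window, 38 of 47 member windows held a match (80.9%; 49.3% for counted symbols). Slc2a3 and Ndrg1 had no entry. A match is a description of the letters and was not tested as a binding site.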

How the data were processed

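Total RNA from the stromal vascular fraction was sequenced in 4 libraries, 2 per group. The authors deposited raw read counts per gene symbol, 1 file per library. Per the submitters' processing notes TopHat2, edgeR, limma and build mm10 were used, while nothing read here names their versions, the counting program or a strand setting. Reads of overlapping genes can therefore not be told apart, and exons of 7 members overlap those of another counted symbol. The members and gene lists were chosen with earlier results of these data known. All 35 members may be named, plus the listed genes that passed or the 2 with the smallest p, and the 2 most abundant markers of a cell type; exceptions are stated.

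Genes were filtered with edgeR 4.0.16 (minimum count 10, total 15) in R 4.3.3, scaled by TMM and tested with its robust quasi-likelihood test, with Benjamini-Hochberg adjustment over 16196 genes and a threshold of 0.05. Standard errors were taken from the F statistic, as the absolute log2 fold change over its root. CPM were TMM-scaled, log2 CPM used a prior count of 2, and ratios added 0.5 to each count. Levels per kilobase used exon unions of basic GENCODE M21 coding transcripts. Coordinates and promoters are RefSeq GRCm38.p6. The fit was tested on simulated data. Replicates differed by more than counting noise. With 2 libraries per group, p-values rest on the spread between these samples alone. The quasi-likelihood test also drew the variability of each gene toward a trend over all genes tested, so its p-values do not measure that gene's own spread only. DESeq2 1.42.0, limma-voom (limma 3.58.1), other scalings and filters, a replicate block and leaving out each library were the alternatives.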

Additional observations from a re-analysis of the deposited data

How the results depend on the processing

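The number of genes passing, 799 with edgeR, was 2951 with DESeq2 and ranged from 0 to 2750 when 1 library was left out, which leaves a group with 1 sample assumed to vary like the other group. The number of members passing, 0 with edgeR, was 7 with DESeq2, 1 with the replicate number as a block (Ldhb, adjusted p = 0.0467) and 0 to 6 with 1 library left out. The enzyme median was -0.42 under library totals and -0.69 to -0.46 with 1 library left out. The cause was not tested. Same-numbered libraries deviated together only weakly (r = 0.12 over genes, 2 pairs), so the numbers were not taken as pairs.

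Log2 fold changes near 0 turned sign. Under library totals they were 0.12 for Gpi1, 0.05 for Slc16a1, 0.12 for Vegfa and 0.02 for Egln1, and under upper-quartile scaling -0.03 for Pfkfb3, -0.01 for Adm and -0.01 for Hif1a. With limma-voom they were 0.34 for Aldoc, 0.14 for Slc16a3, 1.37 for Car9 and -0.29 for Adm, and with the block 0.20, 0.09, 0.81 and -0.25. With 1 library left out they ran from -0.18 to 0.11 for Gpi1, -1.45 to 2.09 for Aldoc, -0.16 to 0.23 for Pfkfb3, -0.34 to 0.09 for Slc16a1, -0.99 to 1.22 for Slc16a3, -0.64 to 0.39 for Vegfa, -0.45 to 0.18 for Egln1, -0.58 to 1.88 for Egln3, -1.21 to 4.53 for Car9, -1.37 to 0.81 for Adm, -0.41 to 0.67 for P4ha1 and -0.15 to 0.25 for Hif1a. Car9, Ankrd37 and Aldoc had 1, 3 and 11 counts in PBS replicate 2, the library with the highest total, and 57, 40 and 123 in PBS replicate 1.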
